A study of Mus musculus with 24 samples.

Results

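Nuclear receptors are transcription factors that bind DNA through a pair of zinc fingers and, in most members, switch between corepressors and coactivators when a small lipid-soluble ligand is bound. Many of them, among them the thyroid hormone, retinoic acid, vitamin D, oxysterol and PPAR receptors, work as heterodimers with a retinoid X receptor (RXR), while steroid receptors form homodimers and several orphan receptors have no agreed natural ligand. In fat they link hormones, retinoids, sterols and fatty acids to genes of lipid storage and use. Here 40 genes of the family were taken, leaving out the REV-ERB genes of the core clock. Of these, 38 had a probe set that named no other gene, out of 22180 genes in all, and the brightest such probe set was used. Nr1h2 and Nr2e3 had none and were not analysed here.

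Signals were read on 24 Affymetrix arrays from epididymal fat (eWAT) of mice, 1 array per mouse and 3 per group. Control mice (CON) had the genotype Syt10-Cre/Cre x Bmal1-+/-, and mutants (MUT) had Syt10-Cre/Cre x Bmal1-flox/-, so that every mouse carried Cre on both Syt10 alleles and a null Bmal1 allele. In MUT the remaining, floxed Bmal1 allele is open to Cre wherever the Syt10 promoter is active, and the labels give the outcome as a loss of the SCN clock, the light-entrained pacemaker in the hypothalamus. The mice spent 2 weeks in light-dark cycles, went into constant darkness and, on the second day, gave tissue at 1 of 4 circadian times (CT): 1, 7, 13 or 19. The labels give no age or sex.

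The labels disagree on the tissue, with eWAT in the titles and the sampling protocol and mediobasal hypothalamus as the sample source. All 10 measured adipocyte markers were strongly expressed, at a median log2 signal of 13.01, and the 12 measured hypothalamus and neuron markers had a median of 7.77. Array medians lay between 7.80 and 7.94, and array pairs correlated at 0.982 to 0.996 over all probe sets. Clock rhythms were present in both genotypes, with a log2 peak-to-trough of 3.44 ± 0.17 in CON and 1.93 ± 0.17 in MUT for Nr1d1, the REV-ERB alpha gene. In CON the mesothelium marker score, the median deviation of 8 genes from their own means, was lowest at CT7 (-0.65 ± 0.04, SD, n = 3) and highest at CT19 (0.25 ± 0.12). The fibroblast and preadipocyte score (-0.33 ± 0.08 at CT7, 0.18 ± 0.11 at CT19) and the macrophage score (-0.28 ± 0.02 and 0.14 ± 0.21) ran the same way, while the adipocyte score stayed between -0.04 and 0.03 in all 8 group means. The endothelium score ran otherwise, at 0.08, -0.05, -0.13 and -0.08 at CT1, CT7, CT13 and CT19 in CON and 0.00, 0.00, 0.03 and 0.13 in MUT. Of 8 endothelium markers 4 were rhythmic in CON (17.1% of all genes) and 1 had a differential rhythm (1.44%). For the latter 5 had an unadjusted p under 0.05. In CON 7 of 8 mesothelium, 4 of 7 fibroblast and preadipocyte, 3 of 9 macrophage and 2 of 10 adipocyte markers were also rhythmic. Of these other lists only that of adipocytes held a differential rhythm, for 1 of 10 markers. In whole tissue, fewer cells of a type and less RNA per cell cannot be told apart.

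Of the 38 measured receptors, 30 had a mean log2 signal at or above 7.4 and are treated as expressed. They were the thyroid hormone receptors Thra and Thrb, the retinoic acid receptors Rara, Rarb and Rarg, the vitamin D receptor Vdr, the 3 RXR genes Rxra, Rxrb and Rxrg, and Ppard. The oxysterol receptor Nr1h3 (LXR alpha), the bile acid receptor Nr1h4 (FXR) and the xenobiotic receptor Nr1i3 (CAR) also reached the threshold. So did Rora and Rorb, which bind the same DNA elements as the REV-ERBs, the orphan receptors Nr2c1, Nr2c2, Nr2f1, Nr2f2 and Nr2f6, and Hnf4a. The oestrogen receptors Esr1 and Esr2, the related Esrra and Esrrg, the mineralocorticoid receptor Nr3c2, and Nr4a2, Nr4a3, Nr5a1 and Nr5a2 completed the list.

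The 8 receptors under the threshold were Nr6a1, at a mean of 7.34, Hnf4g and Esrrb at 7.23, Nr2e1 at 7.20, Nr1i2 and Pgr at 7.15, Nr0b2 at 6.74 and Nr0b1 at 6.52. Nr1h4, at 7.53, was the member just above it. The threshold is lenient: 7 of 12 hypothalamus and neuron markers, 3 of 8 epididymis and testis markers and 3 of 4 hepatocyte markers also reached it. Signals of different probe sets measure different sequences and are not ranked against each other. All 30 were also among the 15526 genes tested.

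**Figure D1:**
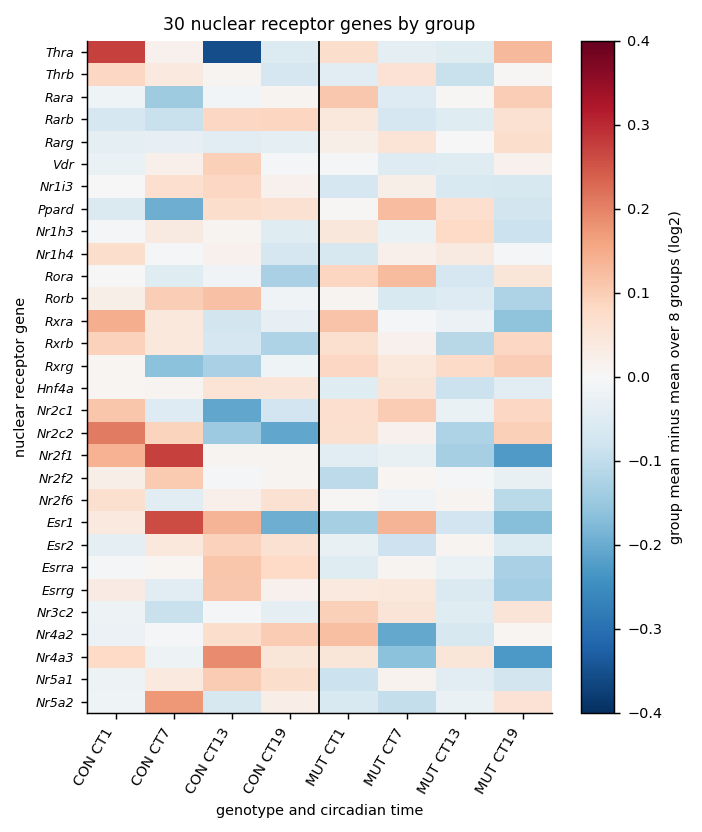
Group means of the 30 expressed nuclear receptor genes (rows, by subfamily) in the 8 groups of genotype and circadian time (columns, 3 arrays each), as the log2 deviation from each gene's mean over the groups, with colour limits at -0.4 and 0.4. Thra spans the widest range in CON, from its high at CT1 to its low at CT13, and most other rows are pale.

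The first question was which receptors had a daily rhythm in control fat. In CON, 6 of the 30 expressed receptors had a 24-h rhythm, against 17.1% of all genes tested, so the family was rhythmic about as often as other genes. They were Thra, Esr1, Nr2c2, Nr2c1, Nr2f1 and Ppard. A fitted 24-h cosine gave each gene a size, the log2 peak-to-trough, and a peak time, and a call means an adjusted p under 0.05 from limma's moderated F test with Benjamini-Hochberg adjustment over all genes. The median size over the 30 was 0.13, against 0.18 over all genes. Errors of fitted values are SE of that model. A gap between a called receptor's highest and lowest CON groups comes from the same arrays as its call and is no further support.

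Thra encodes thyroid hormone receptor alpha, which activates or represses genes according to thyroid hormone. Its CON arrays read 9.99, 9.71 and 9.87 at CT1, 9.67, 9.61 and 9.53 at CT7, 9.14, 9.31 and 9.24 at CT13, and 9.61, 9.45 and 9.53 at CT19. Every CT1 array lay above every CT13 array. The fitted rhythm was 0.63 ± 0.08 (1.55-fold) with its peak at CT1.43 ± 0.46 h (adjusted p = 4.98e-05). It was called under every alternative run (adjusted p up to 0.0015). With a marker score as a covariate the size was 0.63 (mesothelium, adjusted p = 0.00029) or 0.51 (endothelium, adjusted p = 0.0015), the latter an alternative chosen after seeing the data.

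In MUT the Thra arrays read 9.65, 9.73 and 9.59 at CT1, 9.61, 9.47 and 9.57 at CT7, 9.65, 9.54 and 9.41 at CT13, and 9.69, 9.71 and 9.75 at CT19. CT13 was again the lowest group mean, but at 9.54 against 9.55 at CT7 it was far shallower than in CON, and all 3 MUT arrays at CT13 and at CT19 lay above the CON arrays of the same time. The fitted size in MUT was 0.20 ± 0.08 (adjusted p = 0.328), 32.3% of that in CON, with the fitted peak at CT21.4. Thra was the single expressed receptor, 1 of 30, whose rhythm differed between genotypes, against 1.44% of all genes. Its vector difference was 0.56 ± 0.11 (adjusted p = 0.0211, limma's moderated F test), and the call held under every alternative but one, with adjusted p from 0.0090 to 0.0496. It ended with the endothelium score as a covariate (0.39, adjusted p = 0.183). In CON that score was highest at CT1 and lowest at CT13, as Thra was. In MUT both were highest at CT19. At CT13 in MUT Thra was lowest, by the narrow margin given above. The MUT score was 0.03 ± 0.13 (SD, n = 3) at CT13, against 0.00 ± 0.07 at CT1 and 0.00 ± 0.06 at CT7. Whether cell content was a cause of the Thra difference was not tested. The daily mean of Thra did not pass, at 0.06 ± 0.04 higher in MUT (adjusted p = 0.258).

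The Thra gene overlaps Nr1d1 in the RefSeq annotation (GRCm38.p6), and the sources used here do not say whether its probe set reads any sequence that both genes share. Nr1d1 peaked at CT4.65 in CON and CT23.3 in MUT. In CON its group means were 12.04, 12.23, 10.06 and 9.42 at CT1, CT7, CT13 and CT19, against 9.86, 9.60, 9.23 and 9.53 for Thra, so that the genes parted at CT7 and CT19. In MUT Nr1d1 read 11.73, 10.83, 9.99 and 11.66 and Thra 9.66, 9.55, 9.54 and 9.71, both high at CT1 and CT19 and lowest at CT13. At CT19 both were higher in MUT than in CON, Nr1d1 by 2.24 and Thra by 0.18 (adjusted p = 0.158). The part of this overlap in the Thra values was not tested. Thrb, the gene of the beta receptor, which lies between Rarb and Nr1d2 on chromosome 14, had fitted sizes of 0.13 ± 0.08 in CON and 0.07 ± 0.08 in MUT, and neither passed (adjusted p = 0.482 and adjusted p = 0.884).

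Esr1 encodes oestrogen receptor alpha, which restrains fat mass in both sexes of mice. In CON its arrays read 10.19, 10.15 and 10.28 at CT1, 10.45, 10.49 and 10.35 at CT7, 10.35, 10.28 and 10.29 at CT13, and 9.84, 9.91 and 10.17 at CT19. All CT7 arrays were above all CT19 arrays. The size was 0.47 ± 0.08 (1.38-fold), with the peak at CT7.82 ± 0.69 h (adjusted p = 0.00269), and it was called under every alternative run. MUT arrays read 10.07, 10.01 and 10.03 at CT1, 10.29, 10.32 and 10.31 at CT7, 9.98, 10.06 and 10.24 at CT13, and 10.09, 10.10 and 9.81 at CT19. There the highest group was again CT7, and the fitted peak, CT7.70, lay 0.12 h from that of CON. The MUT size of 0.31 ± 0.08 did not pass over all genes (adjusted p = 0.155), and the vector difference between genotypes was 0.16 ± 0.12 (adjusted p = 0.726). Esr2, the beta receptor, did not pass in either genotype, at 0.13 and 0.05.

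Nr2c2 and Nr2c1 encode the testicular orphan receptors TR4 and TR2, which bind direct repeats of the nuclear receptor half-site as dimers. Nr2c2 read 9.76, 9.72 and 9.83 in CON at CT1, 9.75, 9.58 and 9.63 at CT7, 9.44, 9.53 and 9.28 at CT13, and 9.34, 9.19 and 9.54 at CT19. It was high through the subjective day and low through the subjective night, with no overlap between CT1 and CT19. Its rhythm was 0.46 ± 0.08 (1.38-fold), peaking at CT3.67 ± 0.65 h (adjusted p = 0.00162), and it was called under every alternative run. In MUT the arrays read 9.57, 9.69 and 9.63 at CT1, 9.51, 9.65 and 9.58 at CT7, 9.49, 9.42 and 9.41 at CT13, and 9.71, 9.65 and 9.62 at CT19. The low group was now CT13, and CT19 was back at the level of CT1. The MUT size was 0.20 ± 0.08 (adjusted p = 0.346) with a fitted peak at CT23.5, and the vector difference of 0.41 ± 0.11 did not pass (adjusted p = 0.12), except without CON CT19 replicate 3 (0.49, adjusted p = 0.0374).

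Nr2c1 had a smaller CON rhythm of 0.32 ± 0.09 (1.25-fold), with its peak at CT1.30 ± 1.0 h (adjusted p = 0.0351). Its CON arrays read 9.31, 9.25 and 9.27 at CT1, 9.28, 9.02 and 9.05 at CT7, 8.80, 9.06 and 9.02 at CT13, and 9.03, 9.01 and 9.23 at CT19, so CT1 and CT13 did not overlap. In MUT they read 9.17, 9.36 and 9.18, then 9.24, 9.37 and 9.19, then 9.17, 9.08 and 9.17, and 9.22, 9.37 and 9.15 at the same times, and there CT1 overlapped CT13 while CT7 lay above CT13. The MUT size was 0.10 ± 0.09 (adjusted p = 0.805), and the vector difference was 0.22 ± 0.12 (adjusted p = 0.547). The CON call ended without CON CT1 replicate 1 (adjusted p = 0.0964), 2 (0.0595) or 3 (0.0798), or CON CT13 replicate 1 (adjusted p = 0.176, size 0.24). It also ended with the mesothelium score as a covariate (adjusted p = 0.0645) or the endothelium score (0.25, adjusted p = 0.222), with the CON arrays alone (adjusted p = 0.063) and without a cosine (adjusted p = 0.0723).

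Nr2f1, or COUP-TFI, is an orphan receptor that mostly represses transcription. Its CON arrays read 8.49, 8.40 and 8.52 at CT1, 8.71, 8.60 and 8.51 at CT7, 8.38, 8.36 and 8.29 at CT13, and 8.41, 8.32 and 8.29 at CT19. The CON size was 0.29 ± 0.08 (1.22-fold), with the peak at CT5.27 ± 1.1 h (adjusted p = 0.0434). This call ended without any 1 of 12 arrays (adjusted p up to 0.117), with the mesothelium or the endothelium score as a covariate (adjusted p = 0.101 and adjusted p = 0.083), without a level filter (adjusted p = 0.0574) and without a cosine (adjusted p = 0.0706). In MUT the fitted size was 0.22 ± 0.08 at CT5.36 and was not called (adjusted p = 0.336). The related Nr2f2 (COUP-TFII), which holds back adipocyte formation, and Nr2f6 were not called in either genotype, with CON sizes of 0.10 and 0.11.

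Ppard encodes PPAR delta, a fatty acid receptor that drives fatty acid oxidation genes. It ran against the other called receptors in CON, with its low at CT7. The CON arrays read 10.08, 9.89 and 10.08 at CT1, 9.92, 9.87 and 9.85 at CT7, 10.20, 10.07 and 10.16 at CT13, and 10.12, 10.11 and 10.17 at CT19. The size was 0.29 ± 0.07 (1.22-fold), with the peak at CT17.2 ± 0.98 h (adjusted p = 0.0257). It was not called without CON CT7 replicate 2 (adjusted p = 0.0566) or 3 (adjusted p = 0.0696) or CON CT19 replicate 3 (adjusted p = 0.0663). With the mesothelium score, which was also lowest at CT7, as a covariate it was 0.45 (adjusted p = 0.0143), over 1.5 times the size without it.

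In MUT the Ppard arrays read 10.11, 9.98 and 10.14 at CT1, 10.35, 10.08 and 10.17 at CT7, 10.21, 10.07 and 10.14 at CT13, and 9.93, 9.98 and 10.10 at CT19. CT7, the low of CON, was the highest MUT group. The MUT size was 0.21 ± 0.07 at CT8.18 (adjusted p = 0.298). The vector difference between genotypes was 0.46 ± 0.10 and narrowly missed the threshold (adjusted p = 0.0524). It passed under 10 of the 34 alternatives run for this comparison. Among them adjusted p was 0.0484 after quantile normalization, 0.049 with arrays shifted to the same median and 0.0141 with the mesothelium score as a covariate. With the endothelium score as a covariate it did not pass.

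**Figure D2:**
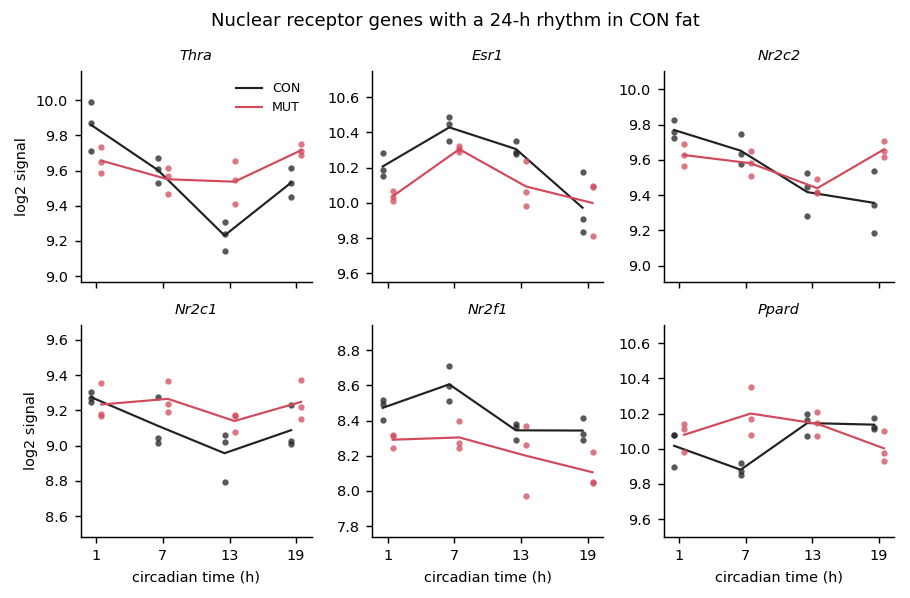
Log2 signal of the 6 receptors with a called 24-h rhythm in CON, by circadian time in hours, for CON (black) and MUT (red). Points are single arrays, lines join the means of 3 arrays, and all panels span the same log2 range. Thra has a deep low at CT13 in CON and a shallow low there in MUT, Esr1 is highest at CT7 in both, and Ppard is lowest at CT7 in CON and highest there in MUT.

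The other 24 expressed receptors had CON sizes between 0.01 and 0.23 and adjusted p of 0.097 or more. The SE of a size ranged from 0.05 to 0.11 over the 30 receptors, so that rhythms of this size could not be told from none with 3 arrays per group. Rxrb (0.23 ± 0.08, adjusted p = 0.097) and Rxra (0.23 ± 0.08, adjusted p = 0.101), the obligate partners of many members, came closest and reached the threshold under some alternatives. Rora, whose protein activates Bmal1 through the elements that REV-ERBs repress, had sizes of 0.08 ± 0.09 in CON and 0.17 ± 0.09 in MUT (adjusted p = 0.739 and adjusted p = 0.516). Nr1h3, the sterol sensor LXR alpha, had 0.09 ± 0.07 and 0.07 ± 0.07, and Rarg, a retinoic acid receptor, 0.01 ± 0.11 and 0.03 ± 0.11.

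The group means of these receptors are given as ranges over the 8 groups of genotype and time. Among RXR partners, Rxra lay between 10.20 and 10.50 and Rxrb between 8.58 and 8.80, both highest at CT1 in CON. The retinoic acid receptors stayed within 8.74 to 8.98 (Rara), 8.24 to 8.41 (Rarb) and 8.29 to 8.40 (Rarg). Vdr, the vitamin D receptor, lay between 8.52 and 8.66, and Thrb between 9.52 and 9.69. The ranges were 9.83 to 10.001 for the sterol receptor Nr1h3, 7.46 to 7.60 for the bile acid receptor Nr1h4 and 7.94 to 8.09 for the xenobiotic receptor Nr1i3. Rora was between 9.22 and 9.47, and its 3 highest group means were in MUT, at CT7, CT1 and CT19. The orphan receptors Nr2f2 (9.53 to 9.74) and Nr2f6 (9.52 to 9.69) and the liver and gut factor Hnf4a (7.89 to 8.03) followed. Among steroid and oestrogen-related receptors, Esr2 spanned 8.51 to 8.68, Esrra 9.15 to 9.39, Esrrg 8.25 to 8.49 and Nr3c2 8.87 to 9.06. Nr4a2 spanned 8.13 to 8.46, both ends in MUT, and the steroidogenic regulators Nr5a1 and Nr5a2 spanned 7.80 to 7.99 and 8.10 to 8.37.

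In MUT, 0 of the 30 receptors had a called rhythm in limma's test, against 0.348% of all genes, and 7 had an unadjusted p under 0.05. Under every alternative run this count was also 0. The largest MUT sizes were 0.31 (Esr1), 0.28 (Nr4a2, a receptor gene of the immediate early class) and 0.22 (Nr2f1). The median MUT size of the 30 was 0.13, as over all genes. That a rhythm was called in CON and not in MUT does not show a difference, and for 5 of the 6 receptors the difference itself did not pass.

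**Figure D3:**
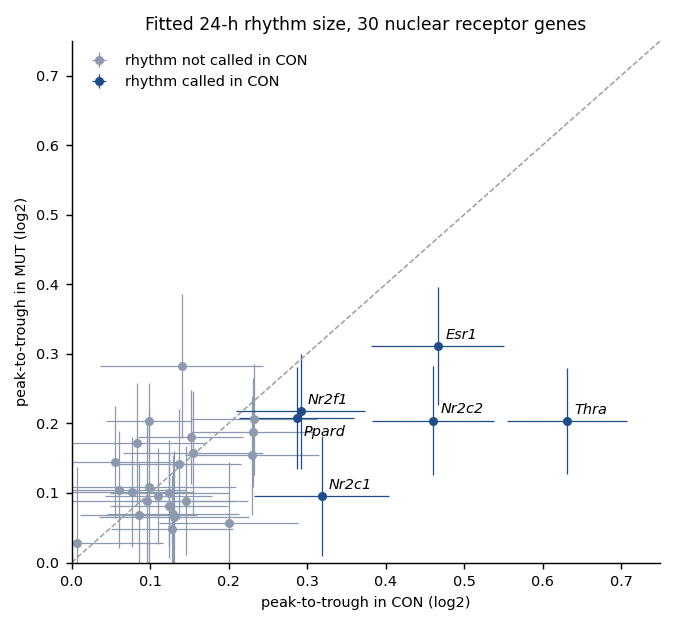
Fitted 24-h peak-to-trough (log2) in CON (horizontal) and MUT (vertical) of the 30 expressed receptors, with SE bars from the limma model, and the line of equal sizes (dashed). The 6 receptors called in CON (blue) all lie below the line, a place that choosing them by their CON rhythm favours. Thra lies farthest from the line, at 0.63 and 0.20.

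A 12-h alternation, the mean of CT1 and CT13 minus that of CT7 and CT19, is the time course that a 24-h cosine misses with 4 time points. It was called for 0 of 30 receptors in CON and 0 of 30 in MUT (limma), against 0.0258% and 0.0451% of all genes, with 2 and 3 at an unadjusted p under 0.05. The widest was Nr4a3 in MUT, at 0.25 (adjusted p = 0.355). Nr4a3 and Nr4a2 are induced by cAMP and stress signals and respond fast.

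Promoters of the receptors were searched for clock motifs in RefSeq windows of 250 bases before to 50 bases after a start (GRCm38.p6), on both strands. The motifs were CACGTG (the E-box bound by BMAL1 and CLOCK), CACGTT (a variant of it), TTATGTAA (the D-box) and the ROR and REV-ERB response element, an AGGTCA core behind an A/T-rich flank. Of the 40 genes, 37 had a window, and Thra, Nr5a1 and Hnf4g are not in the table. The E-box occurred in 6 of 56 receptor windows, against 7.15% of 32851 windows, and its variant in 3, against 4.68%. The D-box and the ROR element occurred in 0 of 56, against 0.938% and 0.219%. Windows with CACGTG among expressed receptors belonged to Esr2, Nr1i3, Rara and Thrb, none of which was called rhythmic. Stretches before the start of 3 of them follow, to set their E-box beside their values, with the E-box in capitals. That of Rara lies after another annotated start of the gene and is not shown.
Thrb (chr14:17981421-17981486, + strand): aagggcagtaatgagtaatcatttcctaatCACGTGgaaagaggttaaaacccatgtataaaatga
Esr2 (chr12:76177296-76177361, - strand): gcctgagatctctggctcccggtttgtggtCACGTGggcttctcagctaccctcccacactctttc
Nr1i3 (chr1:171213720-171213761, + strand): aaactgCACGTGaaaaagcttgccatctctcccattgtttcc
The CON sizes of these genes were 0.13, 0.13 and 0.10. Conversely, 0 of the 7 windows of Esr1, Nr2c1, Nr2c2, Nr2f1 and Ppard, the rhythmic receptors in the table, held any of the 4 motifs, against 12.5% of all windows. No match says only that these letters are not in these windows.

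The second question was whether the receptors' levels differed between genotypes apart from rhythm. In the daily mean 5 of 30 expressed receptors differed (21.7% of all genes), with 4 lower in MUT (9.42%) and 1 higher (12.3%). Nr2f1, Nr4a3, Rorb and Esr1 were lower and Rxrg was higher. All the differences were small, from 0.11 to 0.22 on the log2 scale. The median difference of the 30 was -0.04, against 0.00 over all genes. Errors are SE of limma's model and p-values come from its moderated test, two-sided.

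Nr2f1 showed the firmest difference, with a daily mean -0.22 ± 0.04 from CON (1.16-fold, adjusted p = 0.00323). Its MUT arrays read 8.24, 8.32 and 8.31 at CT1, 8.24, 8.27 and 8.40 at CT7, 8.26, 8.37 and 7.97 at CT13, and 8.05, 8.05 and 8.22 at CT19. At CT1, CT7 and CT19 every MUT array lay below every CON array, and at CT13 the groups overlapped. The call held under every alternative that kept the gene in the test (adjusted p up to 0.0128), and the difference was -0.17 with arrays shifted to the same median.

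Rxrg, the RXR form of muscle, fat and brain, was higher in MUT by 0.15 ± 0.04 (1.11-fold, adjusted p = 0.0208). The CON arrays read 8.98, 8.84 and 8.99 at CT1, 8.94, 8.53 and 8.82 at CT7, 8.75, 8.73 and 8.91 at CT13, and 8.92, 8.92 and 8.89 at CT19. In MUT they read 9.10, 8.93 and 9.0, then 8.97, 8.99 and 8.95, then 9.01, 8.83 and 9.17, and 9.0, 9.03 and 9.05 at the same times. The groups were apart at CT7 and CT19 and overlapped at CT1 and CT13. This call held under every alternative (adjusted p up to 0.0472) but the endothelium score as a covariate (0.15, adjusted p = 0.0824). The partner genes Rxra (-0.04 ± 0.04) and Rxrb (0.03 ± 0.04) did not pass.

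Esr1 was lower in MUT by -0.12 ± 0.04 in the daily mean (adjusted p = 0.0468), with no overlap at CT1, CT7 or CT13. Its call ended without any 1 of 18 arrays (adjusted p up to 0.0835), without a level filter and with arrays shifted to the same median (-0.08, adjusted p = 0.208). The Esr1 call also ended with the mesothelium (adjusted p = 0.124) or endothelium score (adjusted p = 0.191) as a covariate. Nr4a3 differed by -0.15 ± 0.05 (adjusted p = 0.0309). In CON it read 8.23, 8.09 and 8.22 at CT1, 7.96, 8.07 and 8.22 at CT7, 8.20, 8.22 and 8.46 at CT13, and 8.11, 8.16 and 8.17 at CT19. In MUT it read 8.32, 7.93 and 8.20, then 7.86, 7.91 and 8.04, then 8.06, 8.23 and 8.16, and 7.71, 7.94 and 7.96, apart from CON at CT19 alone. This call ended without CON CT7 replicate 3, MUT CT1 replicate 2, MUT CT7 replicate 2 or MUT CT19 replicate 1 (adjusted p from 0.0511 to 0.0605), after quantile normalization (-0.11, adjusted p = 0.11), with arrays shifted to the same median (adjusted p = 0.107) and with the mesothelium (adjusted p = 0.0575) or endothelium score (adjusted p = 0.128). Rorb, a gene of retina and brain, differed by -0.11 ± 0.04 (adjusted p = 0.0448). Its CON arrays read 7.99, 8.06 and 7.79 at CT1, 7.85, 8.17 and 8.05 at CT7, 8.12, 7.97 and 8.03 at CT13, and 7.90, 7.95 and 7.89 at CT19. MUT arrays read 7.91, 7.91 and 7.99, then 7.90, 7.87 and 7.82, then 7.92, 7.83 and 7.88, and 7.75, 7.72 and 7.93, below every CON array at CT13 alone. Of 7 tested hypothalamus and neuron markers, 2 were also lower in MUT, against 9.42% of all genes. A link of these markers to Rorb was not tested. The Rorb call ended without any 1 of 16 arrays (adjusted p up to 0.0902), under both rescalings (adjusted p up to 0.188) and with the mesothelium (adjusted p = 0.181) or endothelium score (adjusted p = 0.31) as a covariate.

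Differences in the daily mean moved with signal level over the whole array. Among genes under the median level of 8.67 the median difference was -0.05 and 69.2% were below 0, while among those above it the median was 0.05 and 28.2% were below 0. Of the receptors, 13 of 14 under that level and 6 of 16 above it were below 0. Nr4a3, Rorb and Nr2f1 were under it and Esr1 was above it. Of 8 mesothelium markers 3 were called higher in MUT in the daily mean, against 12.3% of all genes, and 0 were called at any single time. The split of calls depended on scaling. With arrays shifted to the same median, which moved the median of all genes to 0.05, 6 receptors were higher in MUT (Rxrg, Nr2c1, Nr3c2, Ppard, Rara and Rora) and Nr2f1 alone was lower. Over all genes 87.7% of calls were then higher, against 56.5%. The part of this trend in the calls of single receptors was not tested.

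**Figure D4:**
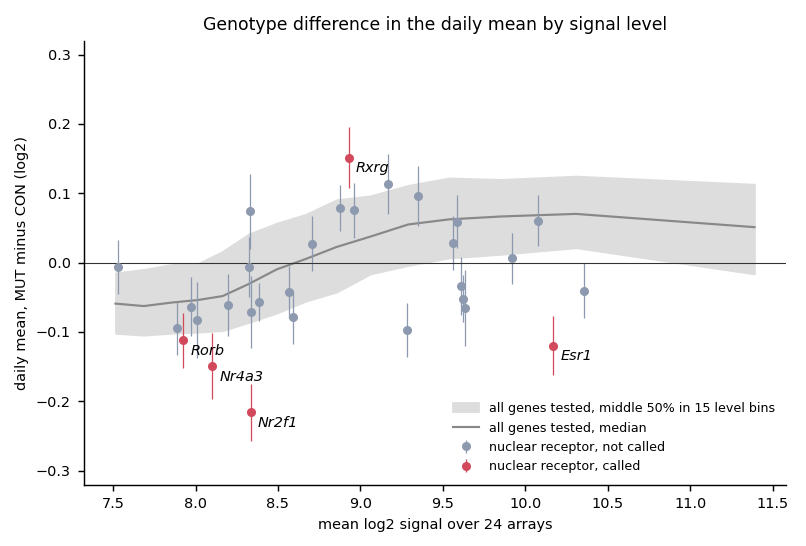
MUT minus CON difference of the daily mean (log2, vertical, SE bars) against mean log2 signal (horizontal) of the 30 expressed receptors, with the median (grey line) and the middle 50% (band) of all genes tested in 15 bins of level. The grey median rises from below 0 at low signal to above 0 at high signal, and among the called receptors (red) Rxrg lies above the band, and Nr2f1, Nr4a3, Esr1 and, narrowly, Rorb lie below it.

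At single times the counts of called receptors were 0 of 30 at CT1 (0.0451% of all genes, with 2 at an unadjusted p under 0.05), 2 at CT7 (4.05%, with 2.98% higher in MUT and 1.08% lower), 0 at CT13 (0.322%, with 6) and 1 at CT19 (2.74%, with 1.93% higher in MUT), all in limma's test. At CT7 Ppard was higher in MUT by 0.32 ± 0.07 (1.25-fold, adjusted p = 0.0167) and Nr2f1 differed by -0.30 ± 0.08 (adjusted p = 0.0403). At CT19 Nr2c2 was higher by 0.30 ± 0.08 (1.23-fold, adjusted p = 0.038). The Ppard call ended without CON CT7 replicate 2 (adjusted p = 0.0557) or 3 (0.0705), without MUT CT7 replicate 1 (adjusted p = 0.0693) and after quantile normalization (adjusted p = 0.051). That of Nr2c2 ended without CON CT19 replicate 1 or 2, MUT CT19 replicate 1 or 2 (adjusted p up to 0.268), with the 6 arrays of that time alone (adjusted p = 0.102), after quantile normalization (adjusted p = 0.0744), without a level filter (adjusted p = 0.0504) and with the endothelium score as a covariate (adjusted p = 0.314). That of Nr2f1 ended without any 1 of 6 arrays (adjusted p up to 0.134), with arrays shifted to the same median (adjusted p = 0.0677), without a level filter (adjusted p = 0.0513) and with the mesothelium score as a covariate (adjusted p = 0.0573).

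Counting receptors whose CON and MUT arrays did not overlap gave 5 of 30 at CT1 (18.9% of all genes), 8 at CT7 (25.6%), 6 at CT13 (22.2%) and 10 at CT19 (27.3%), near the background at each time. Rora, higher in MUT at CT1 and CT7, and Esrrg, an oxidative metabolism regulator, higher at CT7 and lower at CT13 and CT19, were among them without passing the test. Thra at CT13 was 0.31 higher in MUT (adjusted p = 0.0754) and passed with arrays shifted to the same median.

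The remaining genes of the pathway were taken from lists of ligands' enzymes, coregulators and targets. Of 6 other measured receptors, 3 were rhythmic in CON (Nr1d1, Nr1d2 and Ppara, at 0.45 ± 0.11 and CT4.48). Pparg, the master regulator of fat cells (0.16 ± 0.07, adjusted p = 0.186), and the glucocorticoid receptor Nr3c1 (0.08 ± 0.07, adjusted p = 0.652) were not called. Of 19 tested ligand metabolism genes, 7 were rhythmic in CON (17.1% of all genes) and 0 in MUT (0.348%). Aldh1a1, which makes retinoic acid, had 0.72 ± 0.09 at CT17.3 in CON and 0.17 ± 0.09 in MUT, and its vector difference of 0.65 ± 0.13 passed (adjusted p = 0.0227). Dhrs3, which turns retinal back to retinol, had 0.54 ± 0.07 at CT21.1, and Cyp27a1, which makes an oxysterol ligand of LXR, 0.66 ± 0.13 at CT17.2. Cyp27a1 was also higher in MUT in the daily mean (0.33 ± 0.07, adjusted p = 0.00406). Cyp26b1, which degrades retinoic acid, differed by -0.17 ± 0.03 (adjusted p = 0.00368).

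Among coregulators, 5 of 15 coactivators and 3 of 9 corepressors were rhythmic in CON, against 17.1% of all genes, and 0 of either in MUT, against 0.348%. The coactivators were led by Ncoa7 (0.31 ± 0.06, CT21.2), Ncoa2 (0.23 ± 0.06, CT2.94) and the chromatin remodeller Smarca4 (0.32 ± 0.08, CT23.1). The corepressors were Tbl1x, a subunit of the NCOR complex (0.37 ± 0.09, CT20.8), Lcor (0.29 ± 0.07, CT0.63) and Sin3a (0.41 ± 0.11, CT3.54). Tbl1x and its partner Tbl1xr1 were higher in MUT in the daily mean by 0.17 ± 0.04 and 0.16 ± 0.05.

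Target lists were counted in the same way. In CON the counts were 3 of 12 for LXR (Abca1, Lpcat3 and Smpdl3a), 2 of 8 for PPAR delta (Angptl4 and Plin2), 1 of 8 for thyroid hormone (Dio1), 1 of 7 for retinoic acid (Dhrs3), 1 of 8 for ERR (Sdhb) and 0 of 5 for xenobiotic and bile acid receptors (limma, against 17.1% of all genes). In MUT 2 of 8 PPAR delta targets passed, Pdk4 (1.03 ± 0.14) and Angptl4 (0.72 ± 0.13), against 0.348% of all genes. These were also the 2 with a differential rhythm, against 1.44% of all genes. Both genes are also known to respond to other regulators, glucocorticoids among them. The other target lists had 0 calls in MUT. At single times the calls outside the other receptors were 5 at CT7 (4.05% of all genes) and 4 at CT19 (2.74%). Those at CT7 were 1 of 15 coactivators, 1 of 9 corepressors, 2 of 19 ligand metabolism genes and 1 of 8 ERR targets. Those at CT19 were 1 of 12 LXR, 1 of 8 thyroid hormone and 2 of 8 PPAR delta targets. At CT1 and CT13 there were 0 (0.0451% and 0.322%). At CT7 Ncoa4 was lower in MUT, while Aldh1a1, Cyp27a1, Tbl1x and the ERR target Ndufs7 were higher. At CT19 2 PPAR delta targets were higher in MUT. Srebf1, an LXR target, and Thrsp, a thyroid hormone target, both lipogenic, were lower in MUT at CT19 by -0.85 ± 0.15 and -0.70 ± 0.16 (adjusted p = 0.00613 and adjusted p = 0.0224).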

How the data were processed

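The deposited values are log2 signals per probe set (34390), made by the authors with RMA in Affymetrix Expression Console, per the submitters' processing notes. Their versions and settings are not given here by any label. RMA includes a step that equalises array distributions, so a true shift common to all genes cannot be read from these values. The deposited arrays still differed, with a median array median of 7.88 in CON and 7.84 in MUT. Their interquartile ranges ran from 1.94 (CON CT13 replicate 1) to 2.18 (MUT CT19 replicate 2). Of the probe sets 23521 name 1 gene, 1814 several and 9055 none, by the platform's table. The brightest probe set of each gene was kept, and genes at or above the 30th percentile of mean level (7.416) were tested. limma 3.58.1 (R 4.3.3) fitted the 8 group means with 16 residual degrees of freedom and contrasts for 24-h rhythms, their difference, the daily mean, single times and a 12-h alternation, checked on simulated data. Benjamini-Hochberg adjustment ran over the 15526 genes tested (threshold 0.05). The number of arrays limits precision.

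Members and lists were chosen with earlier results of these data known. All members are named, with every array's value for expressed members called in any comparison. Of other lists, at most 3 genes per comparison with the smallest adjusted p are named, plus Nr1d1 as reference; Pparg and Nr3c1 were added after their values were seen. Alternatives were quantile normalization, equal array medians, each array left out, title letters as a block, other level filters, averaging each gene's probe sets, array weights, trended robust variance, only the arrays of a comparison, an F test without a cosine and a mesothelium covariate, with an endothelium covariate added after seeing the data. Promoter sequences are from RefSeq (GRCm38.p6). Figures used Python 3.11.15 and matplotlib 3.10.9.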

Additional observations from a re-analysis of the deposited data

Results flagged for a closer look

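Thra was the receptor whose 24-h rhythm differed between genotypes by a test of the difference itself. The vector difference was 0.56 ± 0.11 on the log2 scale (adjusted p = 0.0211, limma's moderated F test), from 0.63 ± 0.08 in CON to 0.20 ± 0.08 in MUT. It lay between 0.50 and 0.63 when each array was left out. With the endothelium marker score as a covariate, chosen after seeing the data, it was 0.39 and was not called (adjusted p = 0.183). Groups of 3 arrays are too small for a test of single outlying samples.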

How the results depend on the processing

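With 3 arrays per group, calls near the threshold changed with the processing. Receptors called numbered 4 to 6 for the CON rhythm, 1 to 2 for the differential rhythm, 2 to 6 for the daily mean, 0 to 2 at CT7 and 0 to 2 at CT19 when each array was left out, against 6, 1, 5, 2 and 1 with all arrays. Both rhythm counts in CON and MUT stayed within 1.5 times of 6 and at 0 under the other alternatives. The differential rhythm count was 2 with quantile normalization, equal array medians, the replicate block, the filter at the 60th percentile, array weights or the mesothelium covariate. The daily mean count was 3 with the replicate block and 2 with the 60th percentile filter or the mesothelium covariate. At CT7 it was 1 with quantile normalization, equal medians, the block, no filter, the 60th percentile filter or the mesothelium covariate, and 5 with array weights. At CT13 it was 1 with equal medians. At CT19 it was 0 with quantile normalization, the block, no filter or only the arrays of that time, and 4 with array weights. The 60th percentile filter left 18 receptors in the test. With the endothelium covariate, chosen after seeing the data, the counts were 4 for the CON rhythm, 0 for the differential rhythm, 1 for the daily mean (Nr2f1), 2 at CT7 and 0 at CT19. The other causes were not tested. Over all genes the daily mean gave 3365 calls, 1953 after quantile normalization, 711 with the mesothelium covariate, 758 with the endothelium covariate and 4778 with array weights. Of its calls 80.5% were higher in MUT with the 60th percentile filter, and 46.5% without a filter. No receptor's called direction reversed. Deviations of arrays with the same title letter correlated at -0.43 to 0.34 between groups (median -0.016). Those of arrays with other letters correlated at -0.38 to 0.45 (median 0.005). The letters thus gave no sign of pairing mice, though such ranges cannot exclude it. The block ended the calls of Nr2f1 in the CON rhythm and at CT7, Nr2c2 at CT19, and Rorb and Esr1 in the daily mean, and added Ppard to the differential rhythm.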

Other observations

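The 8 receptors under the level threshold were looked at in a fit without a level filter. None had a called rhythm in CON or MUT or a called difference at a single time in that fit. Nr1i2, the pregnane X receptor gene (-0.14 ± 0.04, adjusted p = 0.0297), and Pgr, the progesterone receptor gene (-0.12 ± 0.04, adjusted p = 0.0324), were lower in MUT in the daily mean, in the range of signal where most genes lay below 0. Nr3c2 had a second probe set of its own at 6.22, and a further one shared with Gm10649 at 7.55, against 8.96 for the one used. A probe set shared by Ppard and 1810013A23Rik lay at 7.95.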
